A study of Mus musculus with 6 samples.

Results

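The genes described here are 46 markers of microglia, the resident macrophages of the brain. They were taken by symbol from a list, and all 46 were found among the 37411 gene rows of a count table from mouse hippocampal cultures. Hippocampi of newborn (P0, postnatal day 0) CD-1 IGS mice were cultured for 16 days in vitro, and the cultures are labelled as primary hippocampal neurons. Of 6 libraries of total RNA, 3 (libraries 1, 2 and 3) came from cultures given the solvent DMSO, and 3 (libraries 4, 5 and 6) from cultures given 50 µM forskolin, a plant compound that activates adenylyl cyclase and raises cyclic AMP, with 30 min of treatment in either group. No genotype or transgene is given for any group, and neither the number of pups behind a culture nor a batch is given. Nothing states that the libraries of a group came from separate cultures or pups, so the p-values measure the spread between these libraries only, which may be technical.

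Microglia arise from myeloid precursors that enter the brain early in embryonic life, and they are not made by the neural lineage. Their survival depends on the receptor CSF1R, their myeloid programme on the transcription factor PU.1 (encoded by Spi1), and they watch their surroundings through purine and chemokine receptors. Phagocytosis and immune sensing run through Fc receptors and TREM2, which signal through the small adaptors TYROBP and FCER1G. The 46 genes were divided by role into 12 homeostatic and surface genes, 5 transcription factors, 17 phagocytic and sensing genes and 12 genes found in most leukocytes. In these bulk libraries, fewer cells of a type and less RNA per cell cannot be told apart.

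Because libraries 4 and 5 were the highest for most members and Spi1 is one of them, their promoters were searched for the PU.1 core letters GAGGAA on both strands, in the 250 bases before each RefSeq transcription start (GRCm38.p6). Promoters were found for 34 of the 46 members, and 16 of the 34 (47.1%) held the core, against 25.9% of 27025 symbols with a promoter. A longer composite element of PU.1 and IRF factors was in 1 of the 34 (2.94%, against 2.68% of all) and the RUNX core TGTGGT in 7 (20.6%, against 15.9%). A symbol was counted when any of its promoters held the letters, and the composite and the PU.1 core can overlap. These are matches of letters, not shown to be bound sites. Of the 26 members with a promoter that were at least 4-fold up in libraries 4 and 5, 15 held the core. Irf8 and Ikzf1 are among those that held none. The sequences printed here are picked examples and do not show how often the core goes with expression. The 5 stretches below show the letters beside contrasting expression, from windows that overlap no annotated exon (GENCODE M21), as some but not all of the other windows do: Plek, Inpp5d and Cd68 hold the core and were higher in libraries 4 and 5, Mpeg1 was higher there with no core in this window, and Coro1a was lower in every forskolin library and holds none (1 of its 2 promoters is shown; the other holds none either). Each is printed 5′ to 3′ on the gene's own strand and ends at the base before the start, and capitals mark the core on either strand.
Plek, chr11:17008719-17008968, minus strand: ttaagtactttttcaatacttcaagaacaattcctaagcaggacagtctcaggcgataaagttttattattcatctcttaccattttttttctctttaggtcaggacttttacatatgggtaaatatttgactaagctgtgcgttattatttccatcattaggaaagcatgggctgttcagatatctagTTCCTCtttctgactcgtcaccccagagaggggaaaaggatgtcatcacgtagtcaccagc
Inpp5d, chr1:87620062-87620311, plus strand: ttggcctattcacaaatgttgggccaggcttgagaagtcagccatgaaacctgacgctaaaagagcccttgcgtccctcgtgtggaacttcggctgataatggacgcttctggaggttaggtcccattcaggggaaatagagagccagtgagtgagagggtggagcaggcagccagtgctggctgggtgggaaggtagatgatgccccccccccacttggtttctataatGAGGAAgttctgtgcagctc
Cd68, chr11:69666171-69666420, minus strand: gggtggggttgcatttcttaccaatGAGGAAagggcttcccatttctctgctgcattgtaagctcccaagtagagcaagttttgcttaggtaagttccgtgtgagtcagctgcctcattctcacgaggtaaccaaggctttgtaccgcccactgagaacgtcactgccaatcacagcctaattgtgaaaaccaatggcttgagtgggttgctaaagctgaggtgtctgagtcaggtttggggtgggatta
Mpeg1, chr19:12460520-12460769, plus strand: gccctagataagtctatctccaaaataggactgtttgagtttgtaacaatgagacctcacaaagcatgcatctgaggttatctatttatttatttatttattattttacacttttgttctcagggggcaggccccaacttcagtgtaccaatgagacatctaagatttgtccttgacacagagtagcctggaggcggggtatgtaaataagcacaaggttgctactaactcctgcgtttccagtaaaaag
Coro1a, chr7:126704817-126705066, minus strand: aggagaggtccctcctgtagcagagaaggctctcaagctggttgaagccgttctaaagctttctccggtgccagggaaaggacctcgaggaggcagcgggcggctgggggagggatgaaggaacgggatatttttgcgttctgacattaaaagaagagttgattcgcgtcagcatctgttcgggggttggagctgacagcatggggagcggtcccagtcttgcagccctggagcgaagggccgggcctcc
The core began 61 bases before the start of Plek, 20 before that of Inpp5d and 225 before that of Cd68.

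Total counts were 28342764 to 47548379 per library. Library 6, labelled forskolin, had a Pearson correlation across genes of 0.983 with DMSO library 3, against 0.943 with library 4 and 0.940 with library 5 (log2 CPM, where CPM are read counts scaled to a common library size). Genes are not independent replicates in such a coefficient. Since library 6 stands apart from libraries 4 and 5, values are given by library, and tests with and without library 6.

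In CPM, the 46 members summed to 237.9, 246.6 and 232.2 under DMSO (libraries 1, 2 and 3), 519 in library 4, 906 in library 5 and 209.2 in library 6. Libraries 4 and 5 lay 2.17-fold and 3.79-fold above the DMSO mean and library 6 below every DMSO library, so that the groups overlapped, with means of 238.9 ± 7.25 for DMSO and 545 ± 349 CPM for forskolin (SD, n = 3 each). Mertk, Lgmn, Coro1a, Sall1 and Olfml3, which neurons, astrocytes or other cells of brain cultures can also make, held 88.0 to 90.7% of that sum under DMSO, against 36.4, 23.4 and 88.1% in libraries 4, 5 and 6. These 5 were listed apart with earlier results known, and they are among the members that did not follow libraries 4 and 5, so the sum over the other members is a description that this choice shapes. That sum, over 41 members, was 28.5, 25.1 and 21.7 under DMSO, 330.2 in library 4, 694 in library 5 and 24.9 in library 6. It lay 13.2-fold and 27.7-fold above the DMSO mean in libraries 4 and 5, while library 6 lay inside the DMSO range. The sums rest on 764 to 912 counts under DMSO, 15546 and 23635 in libraries 4 and 5, and 835 in library 6. The exact 95% Poisson interval in library 6, which covers counting error only, was 23.3 to 26.7 CPM, so counting error was small beside the gap to libraries 4 and 5. The group means were 25.1 ± 3.40 for DMSO and 350 ± 335 CPM for forskolin (SD, n = 3 each). For a typical gene of the 41, libraries 4, 5 and 6 stood at 17.4, 33.9 and 0.928 times its DMSO mean (medians).

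**Figure D1:**
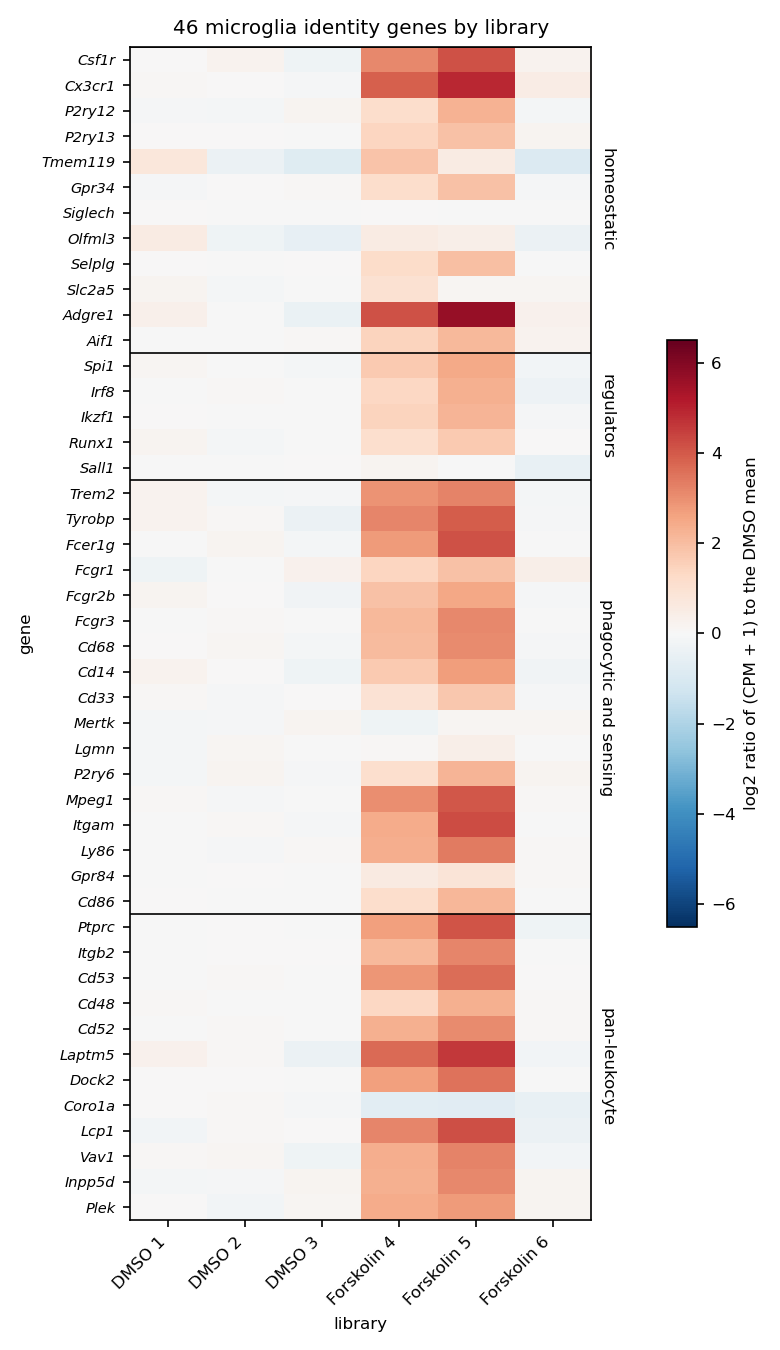
Each row is 1 of the 46 genes and each column 1 library; colour gives the log2 ratio of (CPM + 1) to the mean of the 3 DMSO libraries, with rows grouped by role (regulators are the transcription factors). Libraries 4 and 5 are red in nearly all rows and library 6 is close to the DMSO libraries, while Siglech, Olfml3, Sall1, Mertk, Lgmn and Coro1a do not follow.

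The label of the list was checked against its defining markers. General macrophage genes were plainly present in libraries 4 and 5, and genes used to tell microglia from other macrophages gave a mixed picture. The receptors Cx3cr1 (22.2 and 46.3 CPM in libraries 4 and 5), P2ry13 (34.3-fold and 55.9-fold over the DMSO mean) and Gpr34 (19.7-fold and 43.1-fold) were higher there. Siglech, a sialic acid-binding receptor used as a microglia marker, had 1, 0, 0, 1, 0 and 0 counts in libraries 1 to 6, all under the 3 counts taken as the limit of detection (0.0637 to 0.0984 CPM). Sall1, a transcription factor of microglial identity that neural progenitors and glia also use, was flat, and Tmem119, a surface marker of microglia, stood at 7.94 CPM in library 4, above every DMSO library, and at 2.62 CPM in library 5, inside the DMSO range. P2ry12 reached 1.98 and 5.58 CPM in libraries 4 and 5. In the same 2 libraries 4 of 10 genes of border macrophages, which line brain vessels and meninges, were abundant: Mrc1 had 17.2 and 34.0 CPM, Stab1 36.7 and 76.2, Siglec1 6.90 and 31.7 and Ms4a7 9.86 and 20.5. Cd163, another border macrophage gene, had 0 to 3 counts in every library. The 4 tested border genes were Mrc1, Stab1, Ms4a7 and Lyve1, and Siglec1 was not tested. In all 4, library 6 too lay above every DMSO library, though Mrc1 had only 13 counts there. Such non-overlap held in 10.3% of all tested genes. The 10 border genes summed to 5.85 CPM in library 6, against 3.37 to 4.17 in DMSO. With edgeR on 6 libraries 0 of the 4 were called, where 0.172% of tested genes were called higher. All 4 had an unadjusted p under 0.05, as 22.3% of tested genes had, while DESeq2 called 3 higher, as 5.33%. The shared signal is therefore called a macrophage-lineage signal below, and no cell type is assigned to it.

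With edgeR's quasi-likelihood test on all 6 libraries, 31 of the 46 members passed the low-count filter, which asks for about 10 counts in 3 libraries. The other 15 had too few counts outside libraries 4 and 5, or in every library. Some of the 31 also reached the filter only with libraries 4 and 5 counted. Spi1, for example, had 12, 7 and 6 counts under DMSO and 4 in library 6. Trem2 had 14, 4 and 6 under DMSO and 5 in library 6. The counts of the 31 given below are therefore descriptions that the filter shapes in part. Of the 31, 0 were called higher with forskolin (Benjamini-Hochberg adjusted p under 0.05), where 0.172% of 16233 tested genes were, and 1, Coro1a, was called lower, where 1.34% of tested genes were. At an unadjusted p under 0.05 there were 26 of the 31, 25 of them higher, where 22.3% of tested genes were in either direction. The median log2 fold change of the 31 was 3.04, against 0.02 for all tested genes. All 3 forskolin libraries lay above all 3 DMSO libraries in 4 of the 31 (12.9%), near the 10.3% of all tested genes. Libraries 4 and 5 alone lay above all DMSO libraries in 25 of the 31, against 30.2% of tested genes, and both were at least 4-fold over the DMSO mean in 24, against 1.66%.

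The calls turned on library 6 and on the tool. Library 6 was set apart with its values known, so the counts without it describe the other 5 libraries and lend the members no support. Without library 6, edgeR called 25 of the same 31 members higher and 1 lower, where 16.5% of 16941 tested genes were called higher and 17.1% lower. Another 13 members entered that fit only through libraries 4 and 5, so their being called higher carries no weight, and 2 (Siglech and Slc2a5) entered neither fit. The same limit holds for those of the 31, such as Spi1 and Trem2, that passed the filter only with libraries 4 and 5. On all 6 libraries, DESeq2 called 25 of the 31 higher, where 5.33% of genes with an adjusted p were, and limma-voom with library quality weights called 25, where 21.0% were. Without any other single library edgeR called 0 members and 0.00% of tested genes higher, and 15 to 24 of the same 31 members were higher at an unadjusted p under 0.05, where 11.6 to 19.1% of tested genes reached it in either direction. The lowest of these counts, 15, came without library 3. Here too 13 more members entered the fits without a DMSO library through libraries 4 and 5 and are not counted. With RLE factors, upper-quartile factors, the plain library size, no low-count filter or a mean count of at least 50, edgeR called 0 members higher, where 0.148%, 0.117%, 0.191%, 0.173% and 0.186% of tested genes were, and 25 of the same 31 members (23 of 29 tested with the mean count of at least 50) were higher at an unadjusted p under 0.05, where 16.7 to 24.0% of tested genes reached it.

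**Figure D2:**
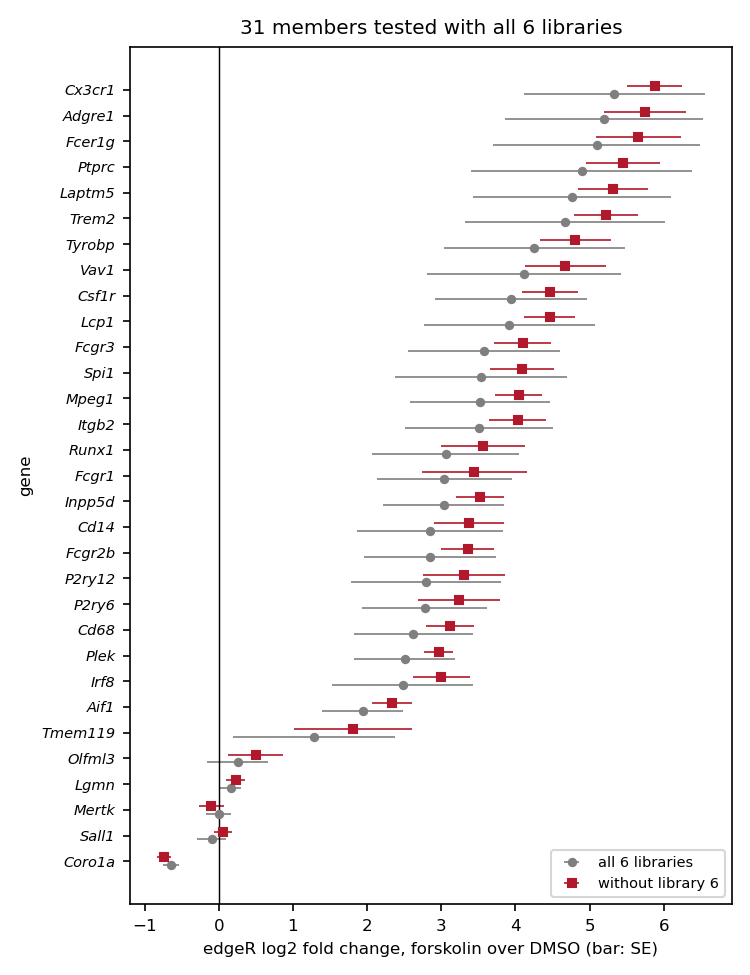
Points give the edgeR log2 fold change of forskolin over DMSO for the 31 tested members, with the standard error as bars, from all 6 libraries (grey circles) and without library 6 (red squares). Leaving out library 6 moves most fold changes up by a small amount and shortens the bars, and Olfml3, Lgmn, Mertk, Sall1 and Coro1a stay the 5 lowest.

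Among the homeostatic genes, Adgre1, Cx3cr1 and Csf1r had the highest CPM in libraries 4 and 5. Adgre1, which encodes the macrophage antigen F4/80, had 2.34, 1.58 and 0.982 CPM under DMSO, against 44.99, 131.7 and 2.15 CPM in libraries 4, 5 and 6. Libraries 4 and 5 were 27.5-fold and 80.6-fold above the DMSO mean and library 6 was level with DMSO library 1 (edgeR: 5.19 ± 1.33 on the log2 scale, SE, with an adjusted p = 0.112 with all 6 libraries). Cx3cr1, the receptor for the neuronal chemokine fractalkine, had 0.656, 0.591 and 0.477 CPM under DMSO, against 22.2, 46.3 and 1.16 CPM in libraries 4, 5 and 6. All 3 forskolin libraries of Cx3cr1 lay above all DMSO libraries, and library 6 stood 2.03-fold over the DMSO mean (edgeR: 5.33 ± 1.22 on the log2 scale, SE, with an adjusted p = 0.0895).

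Csf1r, the receptor for the survival factors CSF1 and IL-34, had 1.31, 1.67 and 0.898 CPM under DMSO, against 19.0, 38.8 and 1.64 CPM in libraries 4, 5 and 6. Libraries 4 and 5 stood 14.7-fold and 30.0-fold over the DMSO mean, and library 6 fell between the DMSO values. Aif1, the calcium-binding protein IBA1 commonly stained to show microglia, differed less: 1.499, 1.54 and 1.68 CPM became 6.01, 10.1 and 2.03 CPM, a fold of 3.82 in library 4 and 6.44 in library 5. Its 3 forskolin libraries all lay above DMSO, but edgeR did not call it on 6 libraries (adjusted p = 0.132).

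The purine receptors differed in the same libraries. P2ry12, an ADP receptor that steers microglial processes, was 5.36-fold and 15.2-fold over the DMSO mean in libraries 4 and 5 and 0.649-fold in library 6. P2ry13, a related ADP receptor, had 2, 2 and 1 counts under DMSO, 84 and 99 in libraries 4 and 5, and 6 in library 6. Set against the 5 DMSO counts together, the ratio of library 5 was 57.1 with an exact 95% counting interval of 23.7 to 179.7. Selplg, a selectin ligand used in leukocyte rolling, had 1, 0 and 2 counts under DMSO, 63 and 104 in libraries 4 and 5, and 0 in library 6. Gpr34, a lysophosphatidylserine receptor, went from 0, 3 and 4 counts to 65, 103 and 0.

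Tmem119 and Slc2a5 parted from the rest between libraries 4 and 5. Tmem119 had 3.09, 0.952 and 0.449 CPM under DMSO, against 7.94, 2.62 and 0.328 CPM in libraries 4, 5 and 6. It was the one tested homeostatic gene other than Olfml3 whose library 5 lay below library 4 and within the DMSO range (edgeR: 1.28 ± 1.09 on the log2 scale, SE, with an adjusted p = 0.506). Without library 4 its log2 fold change was -0.02. Slc2a5, a fructose transporter, had 57 counts in library 4 but 7 in library 5, 7 in library 6 and 8, 1 and 3 in the DMSO libraries. Of 8 tested genes of vessels, mural cells and meninges, 6 were lower in library 5 than in library 4, and Pecam1 and Rgs5 were not. Dcn, a collagen-binding matrix protein, had 81.7 CPM in library 4 and 22.7 in library 5, against 25.2 to 30.9 in DMSO. Cdh5, an endothelial cadherin, had 9.60 and 1.62 CPM, against 3.87 to 9.09 in DMSO. Library 5 was the lowest of all 6 for Dcn and Cdh5, but not for Tmem119. With edgeR on 6 libraries 0 of the 8 were called (1 at an unadjusted p under 0.05, where 22.3% of tested genes were). DESeq2 called 1 higher, where 5.33% of genes with an adjusted p were. Over the 10 vascular, mural and meningeal genes the summed level was 153.9 CPM in library 4, 58.6 in library 5, 56.9 in library 6 and 59.8 to 99.2 in DMSO, with Cldn5 and Kcnj8 at 0 to 2 counts in every library. The part of such cells in the values of Tmem119 and Slc2a5 was not tested. Olfml3, a secreted matrix protein of microglia that other cells also make, overlapped between the groups (3.90 to 9.40 CPM under DMSO, against 9.22, 8.11 and 4.42 CPM in libraries 4, 5 and 6).

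**Figure D3:**
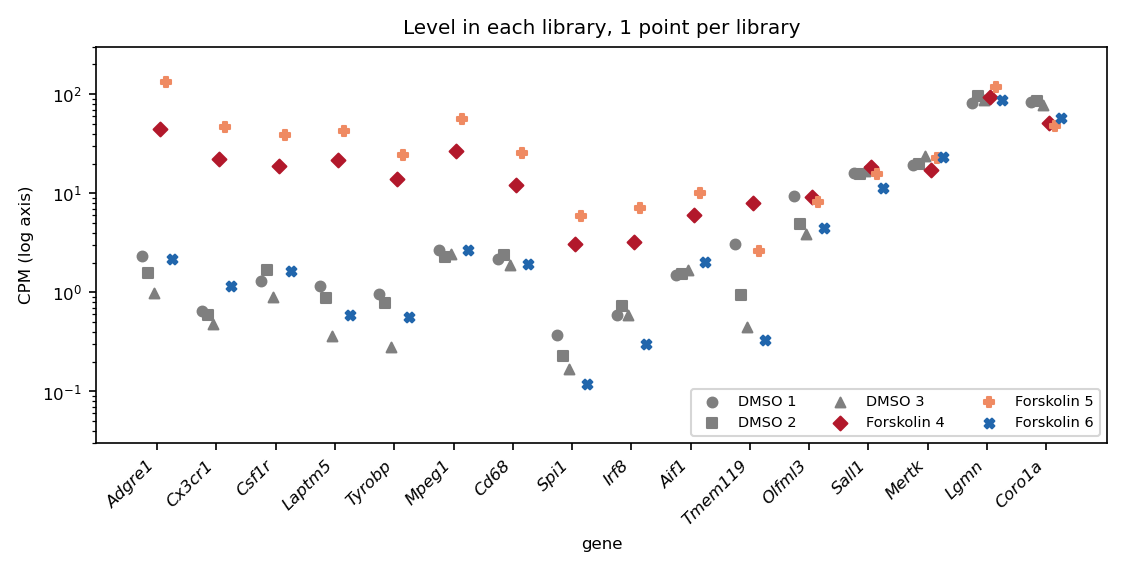
Points give the CPM of 16 members in each of the 6 libraries on a log axis; grey symbols are DMSO and coloured ones forskolin. For the 10 genes on the left libraries 4 and 5 lie above the other 4 libraries, while the 6 genes on the right show small differences or another order.

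Of the 5 transcription factors, 4 were higher in libraries 4 and 5 and at most 1.04-fold over the DMSO mean in library 6. Spi1, encoding PU.1, had 0.375, 0.230 and 0.168 CPM under DMSO, against 3.08, 5.85 and 0.119 CPM in libraries 4, 5 and 6, so that library 6 was the lowest of all 6. Irf8, a partner of PU.1 in myeloid cells, was likewise lowest in library 6, with 0.589 to 0.722 CPM under DMSO, against 3.21, 7.14 and 0.299 CPM in libraries 4, 5 and 6. Ikzf1 (Ikaros, a lymphoid and myeloid regulator) had 3 or 4 counts in each DMSO library, 94 and 141 in libraries 4 and 5 and 1 in library 6. Runx1, needed for blood cell formation, was 8.48-fold and 16.0-fold over the DMSO mean in libraries 4 and 5 and 1.04-fold in library 6. edgeR with all 6 libraries called none of the 4 tested factors at an adjusted p under 0.05, where 0.172% of tested genes were called higher. An unadjusted p under 0.05 was reached by 3 of the 4, and by 22.3% of tested genes. DESeq2 called Spi1, Irf8 and Runx1 higher, where 5.33% of genes with an adjusted p were. Sall1 had 15.8 to 16.7 CPM under DMSO, against 18.5, 15.7 and 11.3 CPM in libraries 4, 5 and 6 (edgeR: -0.10 ± 0.19 on the log2 scale, SE, with an adjusted p = 0.793). The direction of Sall1 turned without library 6, at a log2 fold change of 0.06.

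Of the 17 phagocytic and sensing genes, 15 were at least 5-fold higher in libraries 4 and 5 than the DMSO mean, and Mertk and Lgmn were not. Tyrobp, the ITAM adaptor of TREM2 and other receptors, had 0.968, 0.788 and 0.281 CPM under DMSO, against 13.9, 24.4 and 0.567 CPM in libraries 4, 5 and 6. Trem2, the lipid-sensing receptor that pairs with it, was 33.7-fold and 42.6-fold over the DMSO mean in libraries 4 and 5 and 0.608-fold in library 6. Fcer1g, the second ITAM adaptor and the signalling chain of Fc receptors, was 26.7-fold, 75.1-fold and 0.919-fold. For the adaptors and their receptor, libraries 5 and 4 were the highest, in that order, and library 6 lay inside the DMSO range. edgeR called none of the 3 on 6 libraries (adjusted p = 0.127 to 0.137).

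The Fc receptors bind the constant part of antibodies. Fcgr3, an activating receptor, was 10.9-fold and 24.0-fold over the DMSO mean in libraries 4 and 5, and Fcgr2b, the inhibitory one, 8.03-fold and 12.7-fold. These genes are closely related in sequence, so reads could be split between them and their values are uncertain. Fcgr1, the high-affinity receptor, had 1, 7 and 19 counts in DMSO, 110 and 126 in libraries 4 and 5 and 22 in library 6, and was among the 4 tested members with non-overlapping groups.

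Among the endosomal and effector genes, Mpeg1, which encodes the pore-forming protein perforin-2, had 2.69, 2.30 and 2.44 CPM under DMSO, against 26.9, 55.9 and 2.66 CPM in libraries 4, 5 and 6. Cd68, a lysosomal membrane protein, had 2.15, 2.36 and 1.88 CPM under DMSO, against 12.2, 25.3 and 1.94 CPM in libraries 4, 5 and 6. In both genes library 6 lay within the DMSO range, and libraries 4 and 5 stood apart from all others. Itgam, the integrin chain CD11b, differed most of this group in library 5: it had 3, 6 and 3 counts in DMSO, 233 and 682 in libraries 4 and 5 and 4 in library 6. Cd14, the co-receptor for bacterial lipopolysaccharide, was 6.49-fold and 14.5-fold over DMSO in libraries 4 and 5, and P2ry6, a UDP receptor that triggers engulfment, 5.05-fold and 14.2-fold. Ly86, which encodes MD-1, the partner of the receptor CD180, was 43.4-fold and 97.1-fold. Members at 3 counts or fewer in each DMSO library had wide ratios: Cd86, a co-stimulatory ligand of T cells, had 3 DMSO counts in all and 121 in library 5 (ratio 116, exact 95% counting interval 38.9 to 572), and Cd33, a sialic acid-binding inhibitory receptor, 5 in all and 88 (50.8, 20.9 to 160.2). Gpr84, a receptor for medium-chain fatty acids, had 24 and 27 counts in libraries 4 and 5 and 1 DMSO count in all.

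Of the 12 pan-leukocyte genes, 11 differed in the same way and Coro1a did not. Laptm5, a lysosomal membrane protein of blood cells, had 1.16, 0.886 and 0.365 CPM under DMSO, against 21.9, 42.5 and 0.597 CPM in libraries 4, 5 and 6. Lcp1, the actin-bundling protein L-plastin, had 1.19, 1.61 and 1.51 CPM under DMSO, against 20.8, 43.5 and 0.896 CPM in libraries 4, 5 and 6. In these 2 genes library 6 did not reach the DMSO maximum. Ptprc, the leukocyte phosphatase CD45, was 23.2-fold and 66.5-fold over DMSO in libraries 4 and 5 and 0.283-fold in library 6, with 3 counts there.

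Plek, a substrate of protein kinase C, had the least fold of these 11 genes in library 5. Its levels were 2.78, 2.23 and 3.002 CPM under DMSO, against 18.4, 24.0 and 3.14 CPM in libraries 4, 5 and 6, with library 6 just above the highest DMSO library. Inpp5d, the phosphatase SHIP1 that dampens ITAM signals, had 1.03, 1.12 and 1.54 CPM under DMSO, against 10.2, 18.6 and 1.52 CPM in libraries 4, 5 and 6. Itgb2, the shared chain of leukocyte integrins, was 10.2-fold and 23.2-fold over DMSO in libraries 4 and 5, and the signalling exchange factors Vav1 and Dock2 33.9-fold and 58.3-fold in library 5. Cd53, a tetraspanin, and Cd52, a small surface glycoprotein, were 64.7-fold and 46.9-fold in library 5. Cd48, an adhesion ligand, had 2, 0 and 0 counts in DMSO, 74 and 136 in libraries 4 and 5 and 3 in library 6.

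Coro1a, an actin regulator of leukocytes that neurons also express, was the one member that edgeR called on all 6 libraries. It had 82.6, 85.1 and 77.5 CPM under DMSO, against 51.2, 47.98 and 57.4 CPM in libraries 4, 5 and 6, so that every forskolin library lay below every DMSO library (edgeR: -0.65 ± 0.11 on the log2 scale, SE, with an adjusted p = 0.0465). Its library 6 lay nearer to libraries 4 and 5 than to any DMSO library. With the trend on GC content removed its log2 fold change was -0.27 (edgeR adjusted p = 0.462), a setting in which 0.00% of tested genes were called in either direction. Across all tested genes 16.2% had every forskolin library below every DMSO library. The call was also lost with RLE factors, upper-quartile factors and no low-count filter (edgeR adjusted p = 0.0682, 0.0743 and 0.0743), where 0.696%, 0.511% and 0.623% of tested genes were called lower, and without any single library other than 6, where 0.00% were. It held with the plain library size (1.82% called lower), a mean count of at least 50 (1.58%), TMM factors computed without the leukocyte lists (1.32%), DESeq2 (6.55%) and limma-voom with quality weights (20.9%). Of 12 neuron markers, edgeR called 1 lower with all 6 libraries, where 1.34% of tested genes were. Without library 6 it called 6 of the 12 lower, where 17.1% of tested genes were. DESeq2 called 3 lower with all 6 libraries, where 6.55% of genes with an adjusted p were. Their summed level was 3956 to 5178 CPM under DMSO, against 3051, 3296 and 4926 CPM in libraries 4, 5 and 6. The part of neurons in the value of Coro1a was not tested.

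Mertk and Lgmn completed the members that did not follow. Mertk, a receptor for the engulfment of dying cells that astrocytes also carry, had 19.5, 19.8 and 24.0 CPM under DMSO, against 17.2, 22.7 and 23.3 CPM in libraries 4, 5 and 6 (edgeR adjusted p = 0.997), and its near-zero fold change took either sign with the scaling. Lgmn, the lysosomal protease legumain, had 81.9 to 96.0 CPM under DMSO, against 92.9, 117 and 87.8 CPM in libraries 4, 5 and 6 (edgeR adjusted p = 0.522). Mertk, Lgmn, Coro1a, Sall1 and Olfml3 are the 5 members listed as also made by non-leukocytes, and each had a higher mean CPM under DMSO than any other member. Per kilobase of the longest annotated transcript, Coro1a and Lgmn had 46.8 and 44.6 CPM per kb in DMSO, whereas Tyrobp had 1.14, Adgre1 0.504 and Cx3cr1 0.128. In library 5 on the same per-length scale Lgmn had 59.0, Tyrobp 40.9, Adgre1 40.7, Fcer1g 32.2 and Coro1a 27.5 CPM per kb.

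**Figure D4:**
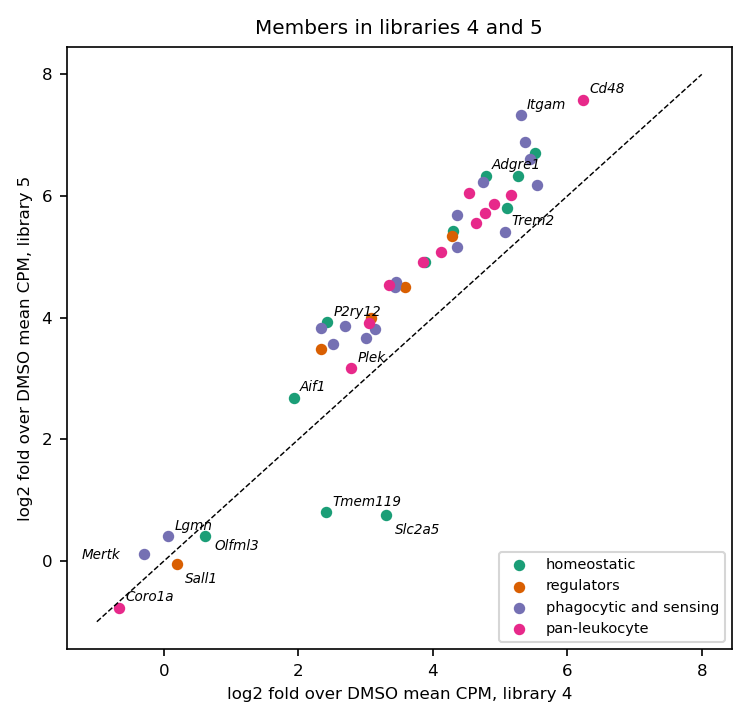
Each point is a member, placed by its log2 fold over the DMSO mean CPM in library 4 (x) and library 5 (y), coloured by role (regulators are the transcription factors); the dashed line marks equal folds. Siglech, with 0 counts in library 5, is left out. Most members lie above the line in 1 band, and Tmem119 and Slc2a5 lie far below it.

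Library 5 exceeded library 4 in 40 of the 46 members, and in 8139 of the 16233 tested genes. Over the 31 tested members the ratio of library 5 to library 4 had a median of 1.94 with quartiles of 1.45 and 2.21, and 24 of the 31 lay within 1.5-fold of that median. Among these 31 the highest ratios were those of Adgre1 (2.93), Ptprc (2.86) and P2ry12 (2.83), and the lowest that of Tmem119 (0.329). Trem2 (1.26) and Plek (1.30) differed less between the 2 libraries than most. With 1 library on each side, these ratios have no replicate check.

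The balance between the roles differed little beside the change in total. Of the counts of the 41 members (without Mertk, Lgmn, Coro1a, Sall1 and Olfml3), the phagocytic and sensing genes held 33.1, 36.4 and 34.0% under DMSO, against 30.6, 30.97 and 34.5% in libraries 4, 5 and 6. Homeostatic genes held 24.6 to 33.6% in DMSO and 32.7, 35.2 and 31.9% in libraries 4, 5 and 6. For the pan-leukocyte genes the share was 28.4 to 36.9% in DMSO and 33.8, 30.98 and 31.1% in libraries 4, 5 and 6. The 4 remaining transcription factors held 4.45 to 4.93% in DMSO and 2.95, 2.86 and 2.52% in libraries 4, 5 and 6, the one role whose share was lower in every forskolin library.

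Most genes that act downstream of the ITAM, Fc and CSF1 receptors were likewise highest in libraries 4 and 5. Of 23 such genes, 17 were tested with edgeR on all 6 libraries and 0 were called, where 0.172% of tested genes were called higher. An unadjusted p under 0.05 was reached by 13 of the 17, and by 22.3% of all tested genes. All 17 fold changes were positive, with a median log2 fold change of 3.12. DESeq2 called 13 of the 17 higher, where 5.33% of genes with an adjusted p were. Libraries 4 and 5 exceeded all DMSO libraries in 16 of the 17, against 30.2% of all tested genes. Rac2, the blood cell GTPase that activates the oxidase, had 0.337 to 0.843 CPM under DMSO, against 10.8, 28.6 and 0.508 CPM in libraries 4, 5 and 6. Cybb, the catalytic chain of the phagocyte oxidase, had 0.140 to 0.312 CPM under DMSO, against 6.58, 21.2 and 0.299 CPM. Syk, the kinase that docks on ITAMs, had 1.09 to 1.35 CPM under DMSO, against 5.42, 15.9 and 0.896 CPM. Lyn, a Src family kinase, already stood at 13.1 to 17.8 CPM under DMSO, against 14.995, 31.1 and 17.9 CPM in libraries 4, 5 and 6.

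Most ligands of these receptors come from other cells. Of the 6 examined, none was called with edgeR on all 6 libraries, and DESeq2 also called 0. An unadjusted p under 0.05 with edgeR was reached by 1, and by 22.3% of tested genes. Without library 6, edgeR called 3 higher and 2 lower, where 16.5% of tested genes were called higher and 17.1% lower. Cd200, a neuronal ligand that restrains myeloid cells, was not called in either fit, with 31.6 to 47.3 CPM under DMSO, against 32.4, 33.5 and 53.2 CPM in libraries 4, 5 and 6. Tgfb1, a growth factor that macrophages also make, had 0.0281 to 0.687 CPM under DMSO, against 1.87, 3.09 and 0.149 CPM in libraries 4, 5 and 6. Csf1, a ligand of CSF1R, had 37.4 to 51.9 CPM under DMSO, against 96.8, 107.9 and 27.7 CPM in libraries 4, 5 and 6. Il34, the second ligand and largely neuronal, had 12.2 to 16.9 CPM under DMSO, against 8.09, 5.76 and 14.1 CPM. Cx3cl1, the fractalkine bound by CX3CR1, had 361 to 432 CPM under DMSO, against 225, 232 and 353 CPM. For Csf1, Il34 and Cx3cl1, libraries 4 and 5 lay on one side of the DMSO range, and library 6 lay within it for Il34 and below it for the other two.

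**Figure D5:**
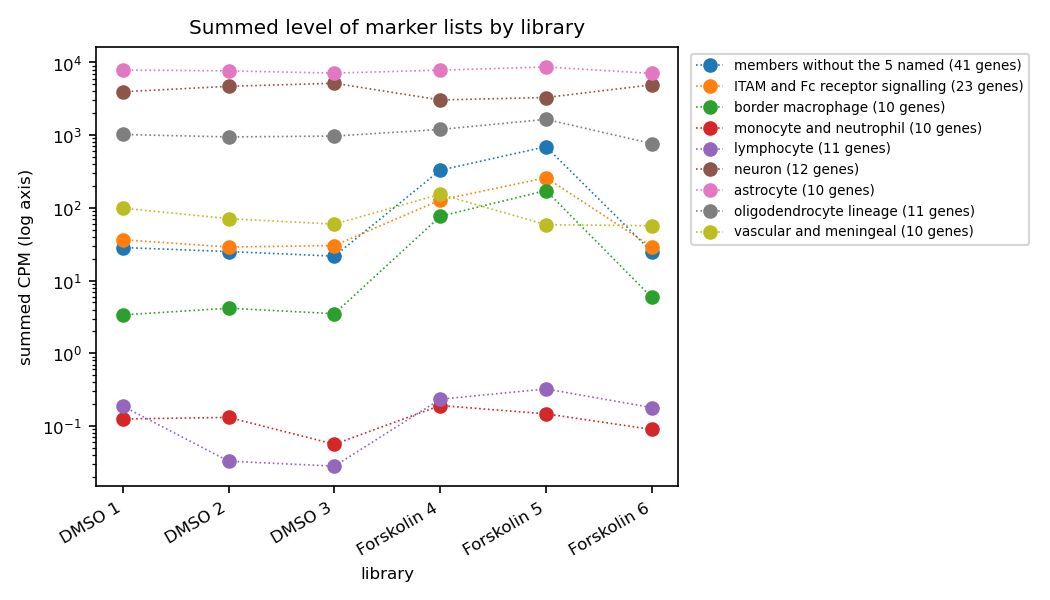
Points give the summed CPM of each marker list in each library on a log axis, joined by dotted lines only to guide the eye; the 5 members left out of the first list are Mertk, Lgmn, Coro1a, Sall1 and Olfml3. The 41 members, the ITAM and Fc receptor signalling genes and the border macrophage genes lie highest in libraries 4 and 5, while the monocyte, neutrophil and lymphocyte genes stay under 1 CPM in all 6 libraries.

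Markers of other blood cells were near 0. The 10 monocyte and neutrophil genes summed to 0.0561 to 0.191 CPM in any library, with Ly6c2, S100a9 and Ly6g at 0 counts in all 6 and Ccr2 at 1 count in library 5. The 11 lymphocyte genes summed to 0.0281 to 0.323 CPM, with the T-cell receptor complex genes Cd3d, Cd3e and Cd3g at 0 in all 6. Of 11 oligodendrocyte-lineage genes, edgeR called 0 on 6 libraries (7 at an unadjusted p under 0.05), and DESeq2 called 3 higher and 2 lower. Of all tested genes 22.3% reached that unadjusted p, and DESeq2 called 5.33% of genes with an adjusted p higher and 6.55% lower. The myelin genes Mbp, Mog and Mag among them were higher in libraries 4 and 5 than in the other 4 libraries: Mbp, myelin basic protein, had 38.0 to 42.8 CPM under DMSO, against 210.2, 387 and 31.6 CPM in libraries 4, 5 and 6. The list as a whole did not follow: 5 of the 11 edgeR fold changes on 6 libraries were positive, with a median log2 fold change of -0.07. Olig1, Sox10 and Cspg4 lay below every DMSO library in each forskolin library. Olig1 had 227.9 to 252.8 CPM under DMSO, against 140.8, 153.5 and 102.8 CPM in libraries 4, 5 and 6. The astrocyte list summed to 7146 to 7868 CPM under DMSO, against 7838, 8673 and 7069 CPM in libraries 4, 5 and 6. edgeR called 0 of its 10 genes on 6 libraries (3 at an unadjusted p under 0.05), and DESeq2 called 1 higher (Aqp4) and 1 lower (Fgfr3). Its genes differed in opposite directions: the water channel Aqp4 was 2.49-fold and 3.18-fold over the DMSO mean in libraries 4 and 5, and the glycolytic enzyme Aldoc 0.549-fold and 0.542-fold. Whether these shifts in other cell types bear on the members was not tested.

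The authors' deposited table lists 132 of the 37411 gene rows (0.353%), all higher with forskolin, and 10 of the 132 are members. It is not a full list of genes, since no gene of the authors' deposited table is below a mean of 126.3 normalised counts or a log2 fold change of 1.501. Csf1r has the largest log2 fold change of the 10 in the authors' deposited table, 3.58, with an adjusted p of 1.43e-24. In the authors' deposited table Cx3cr1 has a log2 fold change of 2.54 (adjusted p = 1.22e-09), Adgre1 1.61 (6.47e-05) and Fcer1g 1.61 (6.66e-05). The other 6 there are Cd68, Plek, Inpp5d, Mpeg1, Laptm5 and Tyrobp, with log2 fold changes of 1.89 to 2.73 in the authors' deposited table. DESeq2 on the deposited counts of all 6 libraries gave 3.94 for Csf1r, 5.34 for Cx3cr1, 5.19 for Adgre1 and 5.10 for Fcer1g (DESeq2 adjusted p = 0.00531, 2.74e-04, 0.00163 and 0.00474). Of the 10 members in the authors' deposited table, 2 (Cx3cr1 and Plek) had all 3 forskolin libraries above all 3 DMSO libraries in CPM, as 10.3% of all tested genes had.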

How the data were processed

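Trizol was used to isolate the RNA, and sequencing used standard Illumina library kits, per the labels' protocols. The authors deposited whole-number counts per gene symbol, 1 column per library; the submitters' processing notes name Salmon, DESeq and GRCm38 with no roles, so the counts may be rounded estimates, and strand, annotation and versions are not given in the sources used here. The authors' deposited table gives a mean normalised count (a signal), a log2 fold change with its error, a test score and p-values.

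Counts were tested with edgeR 4.0.16 (R 4.3.3): filterByExpr (minimum count 10, total 15; 16233 genes), TMM factors, glmQLFit and glmQLFTest, group as the only term, Benjamini-Hochberg over all tested genes, threshold 0.05. CPM use the TMM-scaled library size, and a pseudocount of 1 CPM was used for log2 ratios. The standard error is the log2 fold change over the square root of F. The scripts were tested on simulated data. DESeq2 1.42.0 and limma 3.58.1 were alternatives, with other scalings, filters, a GC correction and each library left out. Lengths and GC content came from GENCODE M21 (GRCm38), promoters from RefSeq (GRCm38.p6). The members and gene lists were chosen with earlier results of these data known. Given by library are the 5 members of each role with the highest mean CPM, those with a mean log2 ratio of libraries 4 and 5 to DMSO under 1, and any called; other members were named after their values were seen.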

Additional observations from a re-analysis of the deposited data

How the results depend on the processing

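Over the alternatives, Coro1a, the 1 member called lower, was lost (0 members called lower) with RLE factors, upper-quartile factors, no low-count filter and the GC trend removed; with the GC trend removed no gene at all was called. The 0 members called higher became 25 with DESeq2 and 25 with limma-voom with library quality weights; in the others run on all 6 libraries it stayed 0. Leaving out 1 library at a time, members called higher ranged from 0 to 38, called lower from 0 to 1, the median log2 fold change of tested members from 2.28 to 4.47 and members with non-overlapping groups from 4 to 38; the highest of each came without library 6, where fewer libraries and a filter that 44 members passed enter by construction; in each fit with 44 members, 13 had entered through libraries 4 and 5. Fewer libraries make non-overlap easier for every gene: without DMSO library 1, 2 or 3 it held in 13, 17 and 9 of 44 tested members and in 17.8%, 14.6% and 18.8% of all tested genes, without library 5 in 7 of 31 and 14.3%, and without library 6 in 38 of 44 and 30.1%. With no low-count filter it held in 9 of 46 members and 9.52% of genes. With CPM on the plain total, the summed level of the 41 members in library 1 was 32.2 in place of 28.5. Among single genes, fold changes reversed for Mertk (0.018 with RLE, 0.045 with upper-quartile factors, 0.0081 with no filter, 0.018 with a mean count of at least 50, 0.017 with DESeq2, 0.0013 with TMM without the leukocyte lists, and -0.098 to 0.13 with 1 library left out), for Sall1 (0.048 with quality weights, and -0.26 to 0.058 with 1 library left out) and for Tmem119 (-0.023 to 2.38 with 1 library left out). The causes were not tested. No paired analysis was possible because the labels number the libraries 1 to 6 across both groups. Low DMSO counts limit the folds: 7 members had 3 counts or fewer in every DMSO library.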

Other observations

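Outside the members, the genes most like them were named by a rule: the 8 highest ratios of the mean CPM of libraries 4 and 5 to the DMSO mean, among tested non-members averaging at least 100 counts. These were Mrc1, Stab1, Ctss, Cybb, Cd84, Marco, Lyz2 and Tlr13, and all are known from macrophages or other myeloid cells. Lyz2, lysozyme of myeloid cells, stood at 6.37, 5.05 and 2.55 CPM under DMSO, against 174.1, 273.9 and 8.51 CPM in libraries 4, 5 and 6. Ctss, the lysosomal protease cathepsin S, had 0.365 to 0.656 CPM under DMSO, against 23.2, 48.7 and 0.627 CPM in libraries 4, 5 and 6. Marco, a scavenger receptor, differed more between libraries 4 and 5 than the members did, with 11.5 and 73.5 CPM. Among the 12362 tested genes that averaged at least 100 counts, members were 25, and of the 100 highest by that ratio 18 were members. This ranking is a description, since libraries 4 and 5 were set apart with their values known.

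Genes raised in microglia near amyloid plaques followed in part. Of 13 such genes, 10 were tested on all 6 libraries and edgeR called 0 (3 at an unadjusted p under 0.05, where 22.3% of tested genes were). DESeq2 called 2 higher, where 5.33% of genes with an adjusted p were. Spp1 (osteopontin) had 2.19 to 4.31 CPM under DMSO, against 57.6, 27.7 and 2.72 CPM in libraries 4, 5 and 6, so library 4 exceeded library 5, unlike in most members. Gpnmb, a lysosomal glycoprotein, had 1.77 to 5.37 CPM under DMSO, against 41.3, 48.5 and 3.37 CPM. Apoe, which astrocytes also make in quantity, had 2620 to 2973 CPM under DMSO, against 2283, 2463 and 1337 CPM in libraries 4, 5 and 6, all 3 below DMSO (edgeR adjusted p = 0.302).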
